A study of Mus musculus with 9 samples.

Results

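The Schlafen genes Slfn1, Slfn2, Slfn4, Slfn5, Slfn8 and Slfn9 were followed in mouse brain after intracerebral haemorrhage (ICH), a bleed into the brain tissue, with and without P7C3-A20, a neuroprotective aminopropyl carbazole. They were found by gene name and are 6 of the 35112 genes in the deposited table. They were selected on their levels in ICH brain and their changes in ICH and with treatment, so those values are given here as a description and are no independent evidence about the family. In ICH brain the 6 listed genes had mean levels of 2.16 FPKM (Slfn1) to 7.83 FPKM (Slfn2), while the next Schlafen gene, the unlisted Slfn3, had 0.314 FPKM. FPKM are fragments scaled to transcript length and library size, so they can be compared between genes.

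Polyadenylated brain RNA was sequenced from 9 wild-type C57BL/6 mice, all taken at 72 hours, in 3 groups of 3 separate animals: ICH treated with P7C3-A20 (ICH+P7C3-A20), ICH alone (ICH), and sham controls (sham). All groups share strain and genotype. The sources used here do not state the animals' age, the way the bleed was made, the brain region or the dose. A library is called by its group and replicate (ICH 2), and libraries held 51537047 to 63324728 estimated counts each. ICH+P7C3-A20 1 stood apart: among the 9 libraries it had the highest summed level of 8 neuronal marker genes (6132 CPM, counts scaled to library size) and the lowest of 8 oligodendrocyte marker genes (5520 CPM). Mitochondrial transcripts made up 9.14% to 18.5% of counts and were highest in ICH+P7C3-A20 3 and ICH+P7C3-A20 1. These are bulk samples, so fewer cells of a type and less RNA per cell cannot be told apart.

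Schlafen proteins share a core domain named after the family and were first described in mouse thymocytes, where they were linked to growth arrest and quiescence. Mouse members are sorted by length: short proteins with little beyond the core (Slfn1, Slfn2), intermediate ones (Slfn3, Slfn4), and long ones with a helicase-like domain (Slfn5, Slfn8, Slfn9, Slfn14). Many are induced by type I interferon in immune cells, through the receptor chains Ifnar1 and Ifnar2, the Jak kinases and a complex containing Stat2 and Irf9 that binds interferon-stimulated response elements. Several family members bind or cut tRNA, among them human SLFN11, and mouse Slfn2 has been described as protecting tRNA from angiogenin.

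The genes lie side by side on chromosome 11, within 239 kb from the first base of Slfn5 to the last base of Slfn4. In the deposited coordinates the short genes are Slfn1 (ENSMUSG00000078763, chr11:83116849-83122670, plus strand) and Slfn2 (ENSMUSG00000072620, chr11:83065112-83070678, plus strand). The intermediate gene is Slfn4 (ENSMUSG00000000204, chr11:83175186-83190216, plus strand). The long genes are Slfn5 (ENSMUSG00000054404, chr11:82951349-82961906, plus strand), Slfn8 (ENSMUSG00000035208, chr11:83002158-83020810, minus strand) and Slfn9 (ENSMUSG00000069793, chr11:82978390-82991830, minus strand). All but Slfn5 have the identical position in GENCODE M21 (mouse build GRCm38). Their longest coding sequences there specify 337 residues (Slfn1), 378 (Slfn2), 602 (Slfn4), 884 (Slfn5), 910 (Slfn8) and 910 (Slfn9), in transcripts of 2, 2, 8, 6, 6 and 5 exons. Slfn8 and Slfn9 are near copies, with 92.7% of aligned coding bases identical. Slfn1 and Slfn2 were 65.0% identical, and Slfn5 and Slfn8 61.0%.

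The stretches of promoter shown next are the places where a searched motif was found in the 250 bases before and 50 bases after each RefSeq start site (GRCm38.p6). They are shown because the short and intermediate genes carried one motif and the long genes another. Capitals mark AGGAAGT, the letters bound by ETS-family factors such as PU.1, or the interferon-stimulated response element (GAAA, any 2 bases, GAAA), read on either strand. All 6 genes matched a window by symbol. The motifs were chosen with the sequences and the changes of these genes known.
Slfn1: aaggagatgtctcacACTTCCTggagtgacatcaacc
Slfn2: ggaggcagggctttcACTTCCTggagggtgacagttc
Slfn4: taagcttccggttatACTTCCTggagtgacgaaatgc
Slfn5: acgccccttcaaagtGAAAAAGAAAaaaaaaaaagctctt
Slfn8: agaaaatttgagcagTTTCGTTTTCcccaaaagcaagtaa
Slfn9: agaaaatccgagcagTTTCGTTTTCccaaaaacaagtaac
These run 5′ to 3′ on the gene's own strand, at chr11:83116731-83116767 (plus), chr11:83065042-83065078 (plus), chr11:83175098-83175134 (plus), chr11:82951932-82951971 (plus), chr11:83020834-83020873 (minus) and chr11:82991851-82991890 (minus), in the order printed.

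The ETS letters began 74, 55 and 73 bases before the start site in Slfn1, Slfn2 and Slfn4, each read on the opposite strand, and were not found in the windows of Slfn5, Slfn8 or Slfn9. Of 32851 mouse promoter windows of the same length, 9.35% held them. The response element letters began 155 bases before the start site in Slfn5, 48 in Slfn8 and 45 in Slfn9, and were not found in the windows of Slfn1, Slfn2 or Slfn4. They were present in 3.44% of all windows. The gamma-activated sequence TTCNNNGAA, searched on both strands, was in none of the 6 windows and in 8.30% of all windows. The windows of Slfn8 and Slfn9 were 80.8% identical over their length, and the other 14 pairs 46.5% to 53.0%. RefSeq places the start site 753 bases downstream of the deposited gene start in Slfn5 and 29 bases upstream of it in Slfn1. Letters in a window are a description and not a shown binding site.

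In the brain after ICH, all 6 genes were higher than in sham brain, by 2.6-fold to 40.1-fold, and with P7C3-A20 all 6 had lower means than in ICH alone, by 2.64-fold to 7.73-fold. With P7C3-A20 the means of Slfn5 and Slfn8 lay below those in sham and the means of the other 4 genes above them, and of these differences from sham Slfn9 alone passed edgeR's test. Differences between the genes were not tested by edgeR. Exact permutation tests on 4 ratios between genes are given below, and none could reach a p under 0.05. Each gene is described in turn, by protein class.

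**Figure D1:**
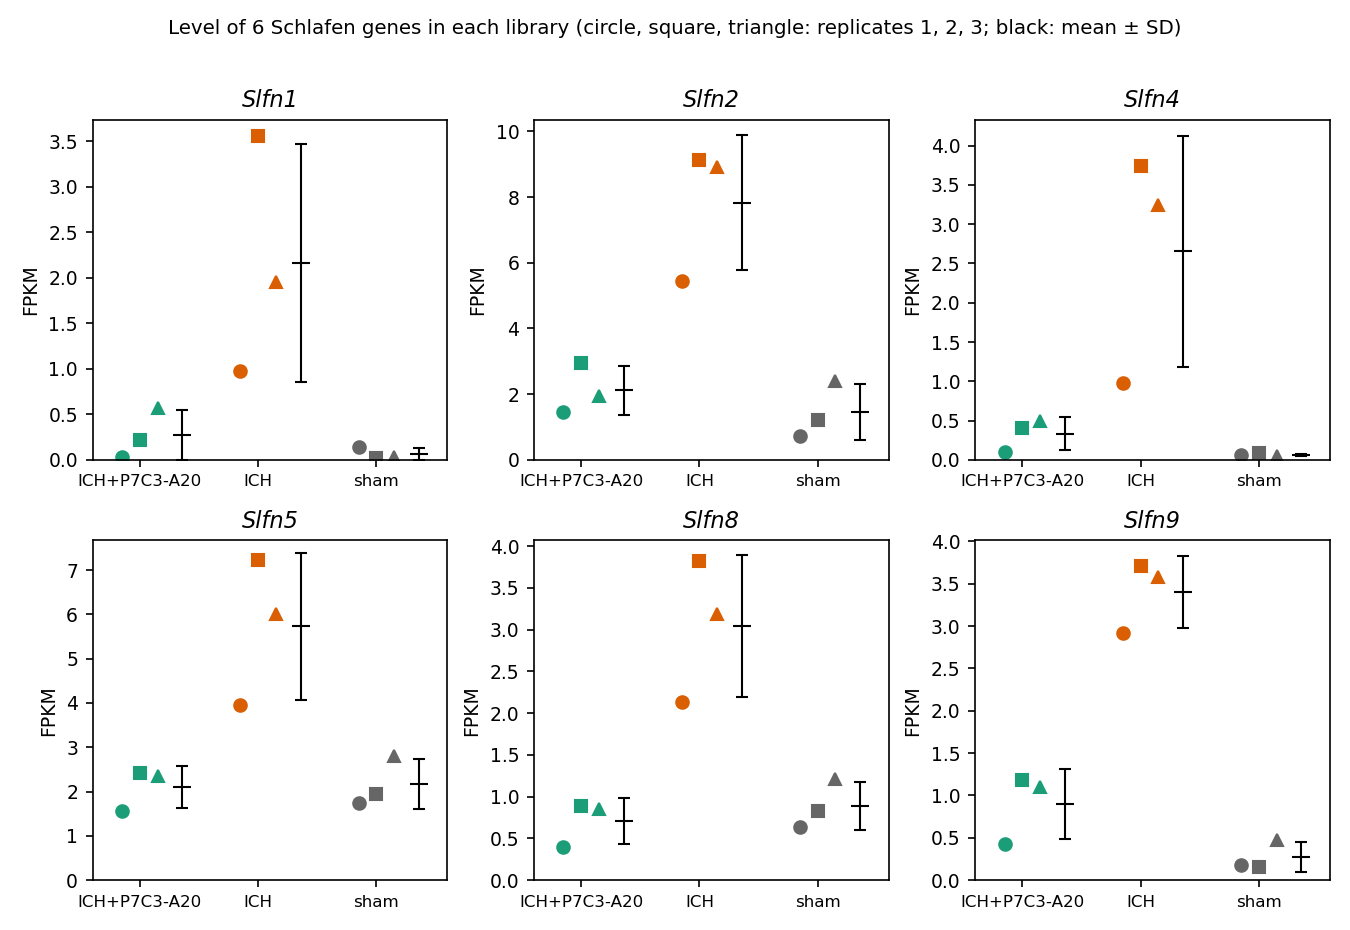
Level of each gene in every library, in FPKM (vertical axis, from 0) by group (horizontal axis). Symbols are single mice and black marks the mean ± SD of 3 mice. In each of the 6 panels the 3 ICH mice lie above every ICH+P7C3-A20 mouse and every sham mouse, and ICH 1 (circle) is the lowest ICH mouse.

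Slfn1, a short protein whose forced expression arrests T cell growth, had 0.0309, 0.222 and 0.568 FPKM in ICH+P7C3-A20 brains, 0.978, 3.56 and 1.96 FPKM in ICH brains, and 0.143, 0.0246 and 0.0267 FPKM in sham brains. It was nearly silent without the bleed: sham libraries held only 19, 4 and 4 estimated counts. The ICH+P7C3-A20 mice spread from the sham level (ICH+P7C3-A20 1, with 4 counts) to well above every sham mouse. In ICH against sham it was 30.1-fold higher (log2 change 4.91 ± 0.995, edgeR adjusted p = 0.00485). Without sham 1 this log2 change was 6.12, and without ICH 2 it was 4.26. With treatment, against ICH alone, the log2 change was -2.91 ± 0.88 (edgeR adjusted p = 0.0672), which did not pass although the groups did not overlap. It was -4.11 with an adjusted p of 0.0373 by edgeR without ICH+P7C3-A20 3, and -2.25 without ICH 2.

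Slfn2, the short protein whose loss breaks quiescence of T cells and monocytes in mice, had the highest mean of the family in ICH brain. Its levels were 1.45, 2.93 and 1.95 FPKM in ICH+P7C3-A20 brains, 5.46, 9.12 and 8.91 FPKM in ICH brains, and 0.727, 1.22 and 2.40 FPKM in sham brains. ICH mice stood clear of both other groups, which overlapped each other. It rose 5.34-fold in ICH against sham (log2 change 2.42 ± 0.38, edgeR adjusted p = 0.000971) and fell 3.63-fold in ICH+P7C3-A20 against ICH (log2 change -1.86 ± 0.37, edgeR adjusted p = 0.0143). The second call was lost without ICH+P7C3-A20 1, ICH 2 or ICH 3 (edgeR adjusted p of 0.0573, 0.0633 and 0.0507).

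Slfn4, an intermediate protein known from activated macrophages and other myeloid cells, had 0.0955, 0.410 and 0.495 FPKM in ICH+P7C3-A20 brains, 0.984, 3.74 and 3.24 FPKM in ICH brains, and 0.0556, 0.0813 and 0.0520 FPKM in sham brains. The 3 groups did not overlap. It had the largest change of the 6 genes in ICH against sham, 40.1-fold higher (log2 change 5.33 ± 0.69, edgeR adjusted p = 0.000303). It was 7.73-fold lower in ICH+P7C3-A20 against ICH (log2 change -2.95 ± 0.60, edgeR adjusted p = 0.0162). That call was lost without ICH 2 or ICH 3 (edgeR adjusted p of 0.0653 and 0.0562). Of its 100-base windows of transcript sequence, 0.271% also occur in another gene, so few of its reads could be shared.

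Slfn5, a long protein, had the smallest changes of the 6 genes. It had 1.56, 2.41 and 2.35 FPKM in ICH+P7C3-A20 brains, 3.95, 7.23 and 6.00 FPKM in ICH brains, and 1.74, 1.95 and 2.80 FPKM in sham brains. The treated and sham mice interleaved, with group means of 2.11 ± 0.475 FPKM in ICH+P7C3-A20 and 2.16 ± 0.562 FPKM in sham (SD, n = 3 each). It rose 2.6-fold in ICH against sham (log2 change 1.38 ± 0.24, edgeR adjusted p = 0.00184) and fell 2.64-fold in ICH+P7C3-A20 against ICH (log2 change -1.40 ± 0.24, edgeR adjusted p = 0.00856). Both calls held without each single library. Of its 100-base windows, 6.40% occur in another gene, mostly the antisense gene Slfn5os, and reads of the 2 can be told apart only if counting used strand, which the sources used here do not state.

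Slfn8, a long protein, had 0.393, 0.884 and 0.852 FPKM in ICH+P7C3-A20 brains, 2.13, 3.82 and 3.18 FPKM in ICH brains, and 0.642, 0.823 and 1.21 FPKM in sham brains. ICH mice were apart from the other groups, and ICH+P7C3-A20 1 lay below every sham mouse. It rose 3.36-fold in ICH against sham (log2 change 1.75 ± 0.32, edgeR adjusted p = 0.00286) and fell 4.19-fold in ICH+P7C3-A20 against ICH (log2 change -2.07 ± 0.33, edgeR adjusted p = 0.00739). As for Slfn5, both calls held without each single library.

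Slfn9, the near copy of Slfn8, had 0.421, 1.18 and 1.10 FPKM in ICH+P7C3-A20 brains, 2.92, 3.71 and 3.58 FPKM in ICH brains, and 0.183, 0.151 and 0.474 FPKM in sham brains. Its ICH mice were the closest to each other of the 6 genes relative to their mean (3.41 ± 0.422 FPKM, SD, n = 3). It was 12.5-fold higher in ICH against sham (log2 change 3.65 ± 0.43, edgeR adjusted p = 0.00017) and 3.71-fold lower in ICH+P7C3-A20 against ICH (log2 change -1.89 ± 0.40, edgeR adjusted p = 0.0186). The second call was lost without ICH 1, ICH 2 or ICH 3 (edgeR adjusted p of 0.0511, 0.0739 and 0.0598). Slfn8 and Slfn9 share 50 of their 100-base windows with each other, and 3.38% of those of Slfn8 and 3.71% of those of Slfn9 occur in another gene, mostly the pseudogene Slfn10-ps. The sources used here do not state how the authors' counting split reads among these copies. In this respect alone their levels are less certain than those of Slfn1, Slfn2 and Slfn4. The low counts of Slfn1 are a separate limit.

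The first count, ICH against sham, thus had 6 of the 6 genes called higher by edgeR (adjusted p under 0.05), where 15.6% of the 21900 tested genes were called higher. Their groups did not overlap, as for 23.3% of tested genes in that direction. Their median log2 change was 3.03, and that of all tested genes 0.00. Treated against untreated ICH brain gave 5 of the 6 genes called lower, where 6.05% of tested genes were (1324 genes, and 465 without ICH 2), and the median log2 change was -1.98 against -0.01 over all tested genes. The groups of all 6 genes did not overlap in this comparison, as for 18.5% of tested genes in the lower direction. The count of 5 became 2 (Slfn5 and Slfn8) without ICH 2 and likewise without ICH 3, and 4 without ICH+P7C3-A20 1. Both comparisons use the same ICH mice, so a high or low ICH library moves them together. All 6 genes passed the filter on low counts. Since they were chosen with these results known, nothing is read from the counts.

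**Figure D2:**
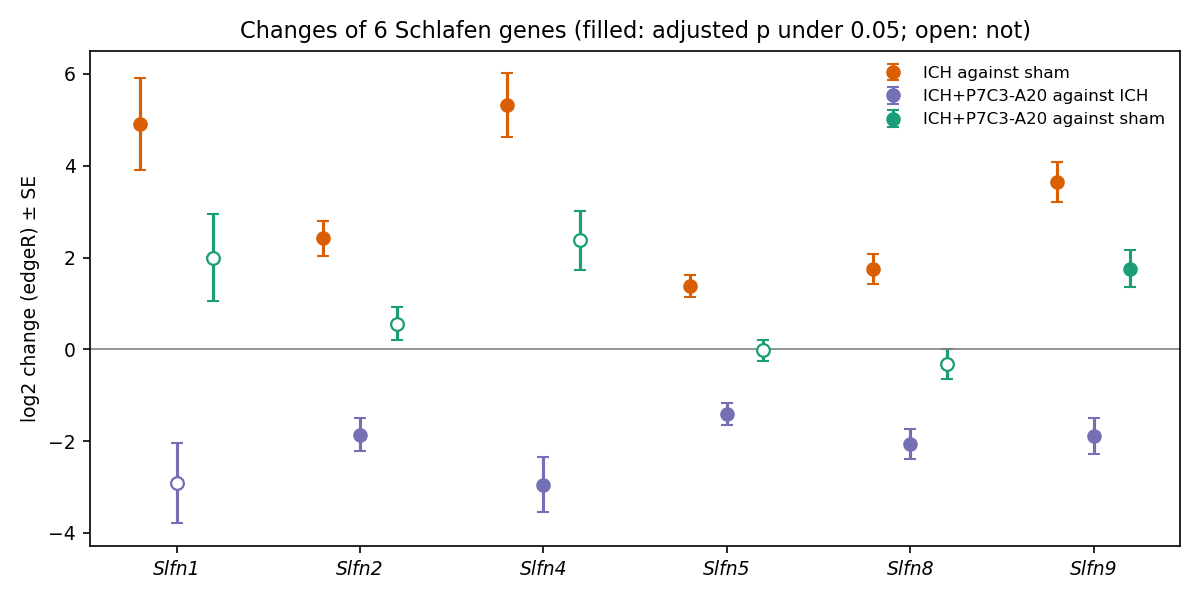
Log2 change of each gene by edgeR in 3 comparisons (colours) with its error (bars, ± SE). Filled points have an adjusted p under 0.05 and open points do not. Slfn1 and Slfn4 have the largest changes in ICH against sham (4.91 and 5.33), and Slfn9 is the only filled point in ICH+P7C3-A20 against sham.

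Treated brain against sham had 1 of the 6 genes called, Slfn9, where 4.58% of tested genes were called higher and 0.744% lower. The median log2 change was 1.16, against 0.03 over all tested genes. Slfn9 was 3.38-fold higher (log2 change 1.76 ± 0.41, edgeR adjusted p = 0.034). Its treated and sham mice did not overlap in CPM (lowest treated 3.29, highest sham 3.11) but did in FPKM (lowest treated 0.421, highest sham 0.474). The call was lost without ICH+P7C3-A20 2, ICH+P7C3-A20 3, sham 1 or sham 2 (log2 change 1.5 to 1.63, edgeR adjusted p of 0.101 to 0.133) and under limma. Slfn4 had a log2 change of 2.37 ± 0.64 (edgeR adjusted p = 0.0635) with groups that did not overlap in CPM, as for 12.6% of tested genes in that direction, and was called without ICH+P7C3-A20 1 (log2 change 2.79, edgeR adjusted p = 0.0132). The other log2 changes were 2.0 ± 0.96 for Slfn1, 0.56 ± 0.36 for Slfn2, -0.02 ± 0.24 for Slfn5 and -0.32 ± 0.32 for Slfn8, none of which passed. That of Slfn1 was 0.80 without ICH+P7C3-A20 3 and 3.21 without sham 1. These errors leave differences of either sign possible for Slfn1, Slfn2, Slfn5 and Slfn8, so equality with sham is not shown.

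The order of the mean levels differed between the groups. By mean FPKM it was Slfn2, Slfn5, Slfn9, Slfn8, Slfn4, Slfn1 in ICH+P7C3-A20 and in ICH brain, and Slfn5, Slfn2, Slfn8, Slfn9, Slfn1, Slfn4 in sham brain. Among neighbours in the order, the ranges over 3 mice were separate for Slfn5 over Slfn9 in ICH+P7C3-A20 and in ICH, and for Slfn8 over Slfn9 and Slfn9 over Slfn1 in sham. The other neighbours overlapped. The place of Slfn2 above Slfn5 in ICH+P7C3-A20 rests on means of 2.11 FPKM each and held in 1 of 3 libraries, and that of Slfn1 above Slfn4 in sham likewise held in 1 of 3. Slfn5 made up 33.9 ± 4.98% of the summed FPKM of the 6 genes in ICH+P7C3-A20, 23.2 ± 0.856% in ICH and 45.3 ± 4.82% in sham (SD, n = 3 each). Slfn9 made up 13.4 ± 2.41% in ICH+P7C3-A20, 14.3 ± 3.08% in ICH and 5.20 ± 1.63% in sham. Slfn1 and Slfn4 together were the smallest part in sham, where their mean shares were 1.68% and 1.42%, against 8.21% and 10.02% in ICH.

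Against sham, the measured changes of the 2 near copies differed in size, which no test here could establish. The level of Slfn9 was 1.07, 1.33 and 1.29 times that of Slfn8 in the ICH+P7C3-A20 brains, 1.37, 0.972 and 1.13 times in the ICH brains, and 0.286, 0.183 and 0.392 times in the sham brains, on the FPKM scale. All 6 brains with a bleed lay above all 3 sham brains, and the treated and untreated ICH brains overlapped. The log2 ratio differed by 2.06 between ICH and sham and by 2.16 between ICH+P7C3-A20 and sham (two-sided exact permutation p = 0.1 for each, n = 3 each, the smallest that 3 against 3 allows). It differed by 0.10 between ICH+P7C3-A20 and ICH (two-sided exact permutation p = 0.7, n = 3 each). The ratio of Slfn8 to Slfn5 was 0.252, 0.366 and 0.363 in ICH+P7C3-A20, 0.540, 0.528 and 0.530 in ICH and 0.369, 0.422 and 0.431 in sham. Here the ICH brains were apart from both other groups and the treated brains were the lowest (two-sided exact permutation p = 0.1 for each of the 3 comparisons, n = 3 each). Of 4 such ratios, giving 12 comparisons, 7 had this smallest p, and with Benjamini-Hochberg adjustment over the 12 they had an adjusted p of 0.171 (exact permutation tests). These pairs were chosen after the values were seen. No outcome of 3 against 3 could give a p under 0.05, so nothing is read from these tests.

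**Figure D3:**
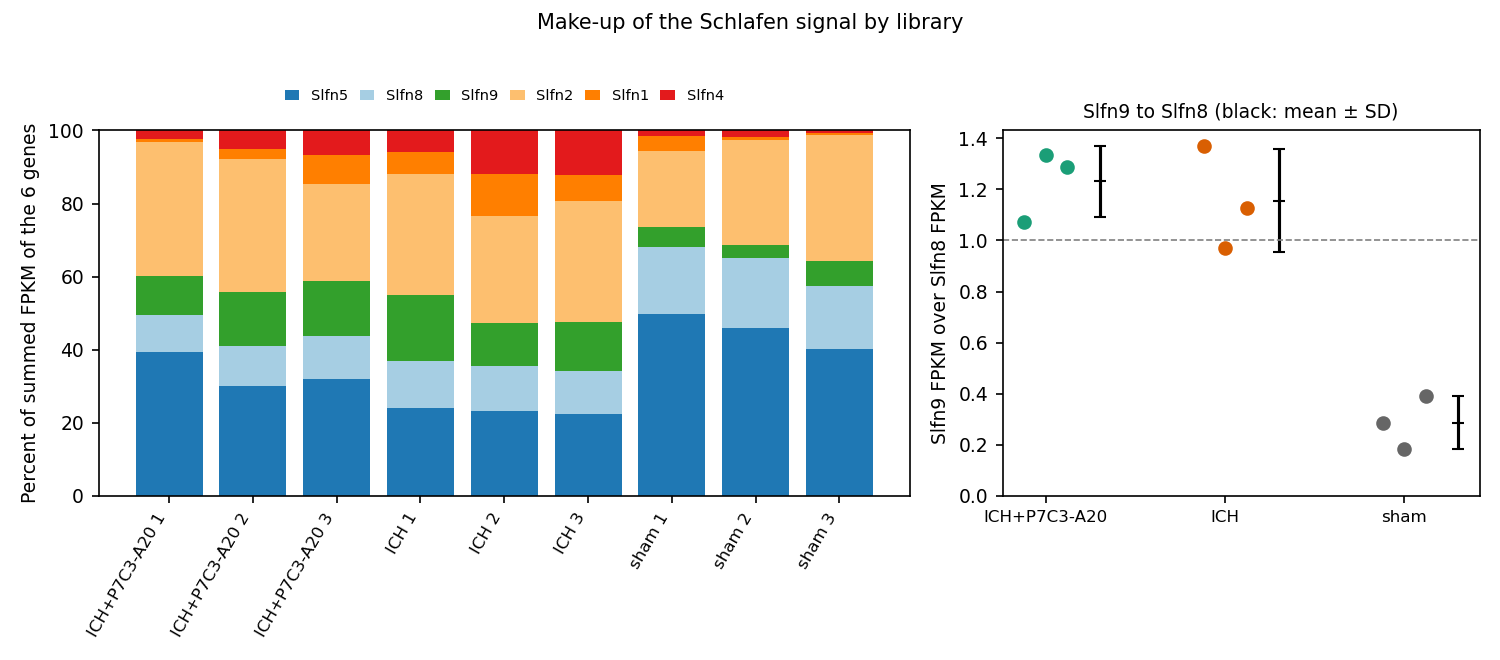
Left, the share of each gene in the summed FPKM of the 6 genes (percent, stacked bars, 1 bar a mouse). Right, the level of Slfn9 over that of Slfn8 (FPKM ratio, 1 point a mouse, black mean ± SD, n = 3, dashed line at 1). Slfn5 has its largest share in sham (45.3% on average), and the ratio is 0.183 to 0.392 in sham and 0.972 or higher in every brain with a bleed.

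Placed between the sham mean (0%) and the ICH mean (100%) on the log2 FPKM scale, the treated brains are given gene by gene. Slfn8 lay at -63.5%, 2.15% and -0.843% and Slfn5 at -31.7%, 13.6% and 10.6% in ICH+P7C3-A20 1, 2 and 3. Slfn2 lay at 6.68%, 46.3% and 23.5%, Slfn4 at 12.1%, 52.4% and 57.6%, and Slfn9 at 21.8%, 60.4% and 57.7%. Slfn1 was the most scattered, at -10.4%, 42.5% and 67.7%. ICH+P7C3-A20 1, the library that stood apart, was the lowest treated brain for every one of the 6 genes. Whether its differing make-up of neuronal and oligodendrocyte transcripts bears on this was not tested.

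Over the 9 libraries the log2 CPM levels of the 15 pairs of members had Pearson correlations of 0.833 (Slfn8 and Slfn9) to 0.986 (Slfn5 and Slfn8). The points share their group differences and libraries, and with group means removed the range was 0.377 (Slfn1 and Slfn2) to 0.958 (Slfn5 and Slfn8). For the near copies Slfn8 and Slfn9 it was then 0.844, so their place as the lowest pair did not hold within groups, while Slfn5 and Slfn8 were the highest pair by both measures. Other genes were compared among 12179 tested genes with a mean of at least 1 FPKM, without the members and without clone, model or pseudogene names. Of these, the genes most like Slfn5 were Trim25, Uba7 and Parp14 (0.995, 0.992 and 0.989), all known as interferon-stimulated genes. Those most like Slfn8 were Gbp3, Trim21 and Gbp7 (0.984, 0.984 and 0.983), 2 interferon-inducible GTPases and an antibody receptor of the cytosol. Those most like Slfn9 were Ncf4, Ctss and Chst2 (0.996, 0.995 and 0.994), a subunit of the phagocyte oxidase, a lysosomal protease of microglia and macrophages, and a sulphotransferase. For Slfn2 they were Psmb8, Plekha2 and Clec2d (0.993, 0.991 and 0.990), of which Psmb8 is a subunit of the immunoproteasome. For Slfn1 they were Trim30d, Phf11b and Oma1 (0.984, 0.983 and 0.975), and for Slfn4 Pim1, Phf11b and Eif2ak2 (0.988, 0.984 and 0.983), the last being the interferon-induced kinase PKR. With group means removed, the correlations of the genes named here ran from 0.872 (Slfn1 and Oma1) to 0.988 (Slfn5 and Trim25). These correlations over 9 libraries describe likeness of levels and carry no test.

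The other Schlafen genes were low. Slfn3, an intermediate member, averaged 0.115 FPKM in ICH+P7C3-A20, 0.314 in ICH and 0.178 in sham. Its log2 change was 0.77 ± 0.44 in ICH against sham (edgeR adjusted p = 0.237) and -1.43 in ICH+P7C3-A20 against ICH (edgeR adjusted p = 0.075). Slfn10-ps had 9, 17 and 28 estimated counts in ICH+P7C3-A20, 32, 38 and 75 in ICH and 24, 0 and 0 in sham. Its log2 change was 2.54 in ICH against sham (edgeR adjusted p = 0.17). In ICH+P7C3-A20 against ICH it was -1.34 (edgeR adjusted p = 0.552), and Slfn10-ps passed in no comparison. For both Slfn3 and Slfn10-ps the ICH mice lay above every sham and every ICH+P7C3-A20 mouse in CPM, as for the 6 listed genes. The long gene Slfn14 had 16 counts in ICH 3 and none elsewhere, and Slfnl1, a relative outside the cluster, averaged at most 0.0326 FPKM in a group, so neither was tested. Of the 2 tested genes edgeR called 0 in each of the 3 comparisons, with 0, 1 and 0 at an unadjusted p under 0.05, and DESeq2 called 0, 1 and 0. Without sham 1, edgeR called 1 of the 2 in ICH against sham and 1 in ICH+P7C3-A20 against sham.

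Within the cluster, 2 further transcripts were called higher in ICH against sham. AI662270, annotated as a long non-coding RNA, had 5, 52 and 25 estimated counts in ICH+P7C3-A20, 147, 130 and 214 in ICH and 3, 0 and 22 in sham (ICH against sham log2 change 4.38, edgeR adjusted p = 0.00742). The pseudogene Gm11427 had 8, 9 and 0 counts in ICH+P7C3-A20, 40, 142 and 61 in ICH and none in sham. Its edgeR adjusted p was 0.00307 in ICH against sham, and no fold is given. Gm11427 shares 15.7% of its 100-base windows with AI662270 (392 windows), Slfn3 (93) or Slfn4 (9). AI662270 overlaps it on the same strand, so the counts of both are uncertain and may not be separate signals. Both lie beyond Slfn4 in the direction of Slfn14. They were singled out after their values were seen.

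Of the 12 genes beside the cluster, 3 were called in ICH against sham, a share near that of all tested genes, so nothing is read from it. In that comparison 2 were higher, Mmp28, a metalloproteinase (log2 change 1.10), and Taf15, an RNA-binding protein (0.46), where 15.6% of all tested genes were called higher, and 1 lower, the clathrin adaptor gene Ap2b1 (-0.32), where 10.4% were called lower. The list's median log2 change was -0.17. Between ICH+P7C3-A20 and ICH edgeR called 0 of 12, with 4 at an unadjusted p under 0.05 and 2 called by DESeq2, and log2 changes ran from -0.60 (Mmp28) to 0.53 (Fndc8). Between ICH+P7C3-A20 and sham 0 of 12 were called by edgeR and by DESeq2, with 1 at an unadjusted p under 0.05. Unc45b, the neighbour next to Slfn5, had a log2 change of 0.87 ± 0.39 in ICH against sham (edgeR adjusted p = 0.132). The neighbours Rffl, Lig3, Rad51d, Nle1, Rasl10b and Gas2l2 also passed in no comparison.

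**Figure D4:**
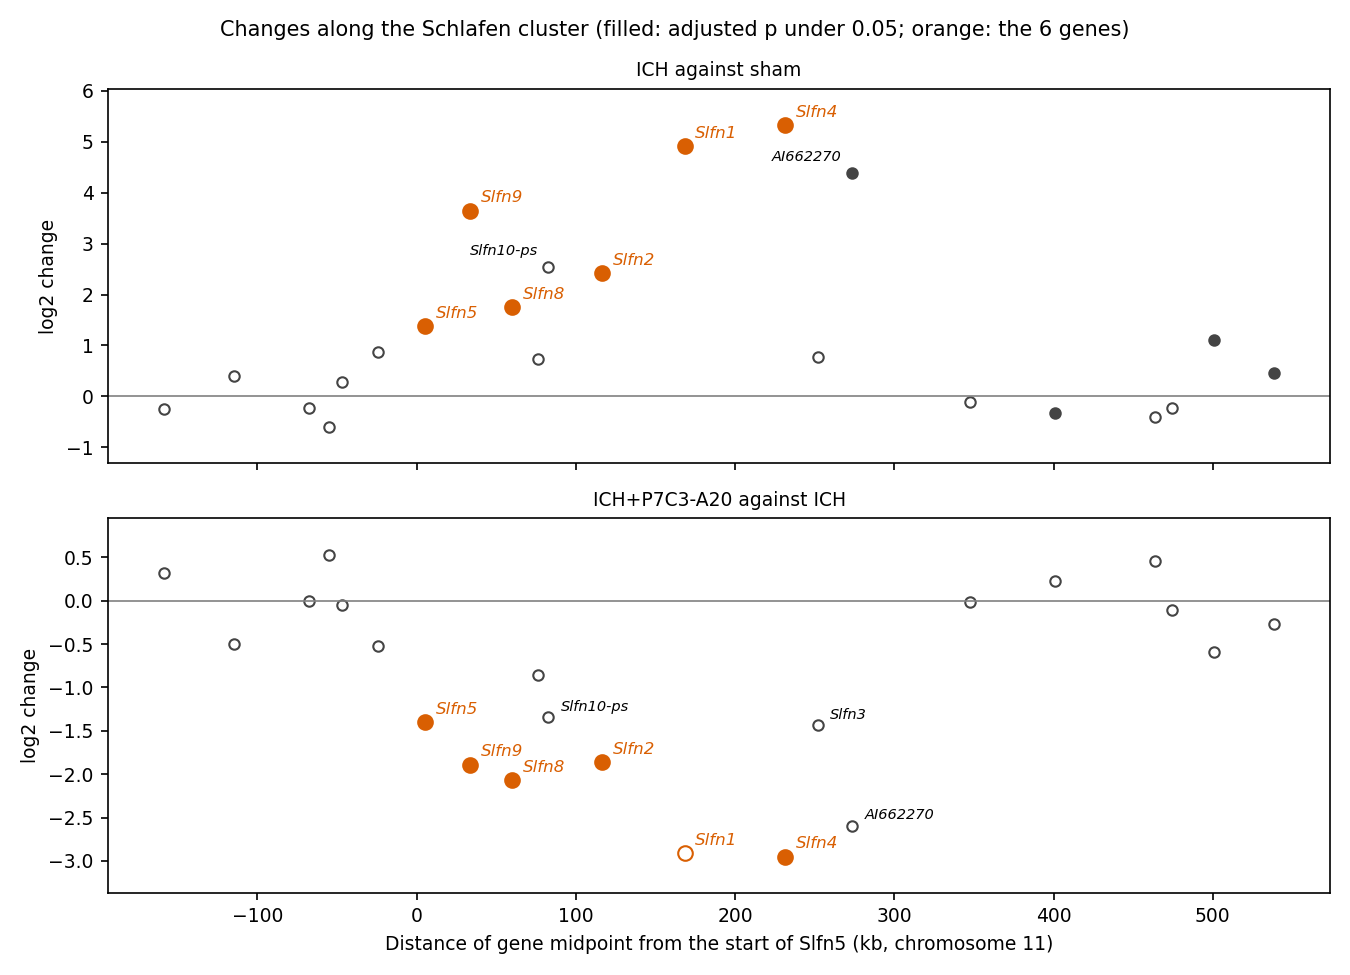
Log2 change by edgeR of tested genes along the cluster and beside it, by distance of the gene's midpoint from the start of Slfn5 (kb). Filled points have an adjusted p under 0.05. The 6 listed genes (orange), AI662270 and, as an open point, Slfn10-ps (2.54) lie above 1 in ICH against sham. The neighbouring genes on both sides lie between -0.61 and 1.10, and the highest of them, Mmp28, is thus also above 1 and filled. Gm11427 is left out because sham libraries held no counts.

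The interferon pathway around these genes was read from lists drawn up with earlier results known. Counts of called genes in this and later lists stand beside the shares of all 21900 tested genes. These were 15.6% higher and 10.4% lower in ICH against sham, and 4.58% higher and 0.744% lower in ICH+P7C3-A20 against sham. In ICH+P7C3-A20 against ICH 1324 genes (6.05%) were lower and 590 higher. Of the ligands, Ifnb1 had 3 estimated counts in ICH 3 and 0 in the other libraries. Ifng had 4 and 6 counts in sham 1 and sham 2 and 0 elsewhere, and Ifne had none. None could be tested, and 3 counts in a library correspond to 0.0455 to 0.0625 CPM, a limit for counting error only.

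Of 7 genes for interferon receptors and Jak kinases, 5 rose in ICH against sham and 0 fell (median log2 change 0.54). Ifnar2 and Ifngr1, chains of the type I and type II receptors, had log2 changes of 1.3 and 1.19, and Ifnar1 0.42 ± 0.09 (edgeR adjusted p = 0.00476). The kinases Jak1 and Jak2 had -0.03 and -0.22 and did not pass. With treatment only Ifnar2 of the 7 was called against ICH, lower by edgeR (log2 change -0.79, adjusted p = 0.0105), and 0 were called without ICH 2. Against sham, ICH+P7C3-A20 brain had only Ifngr1 called (log2 change 0.69, edgeR adjusted p = 0.048), and 0 were called without ICH+P7C3-A20 2, ICH+P7C3-A20 3, sham 1 or sham 2, and 2 without ICH+P7C3-A20 1.

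All 8 listed interferon transcription factors rose in ICH against sham (median log2 change 1.12), and 7 of the 8 fell in ICH+P7C3-A20 against ICH (median -1.24). Stat2 and Irf9 had log2 changes of 0.77 and 0.76 in ICH against sham and of -0.77 and -0.81 in ICH+P7C3-A20 against ICH. Irf7, the inducible amplifier of interferon production, had the largest fall with treatment (log2 change -2.29, edgeR adjusted p = 0.00684), and Irf1 fell by 1.14 on the log2 scale. Irf3, which is expressed without interferon, had -0.26 and did not pass. The first count was 5 of 8 without ICH 2 and without sham 1, and the second 4 of 8 without ICH 2 and without ICH 3. Treated brain had 2 of the 8 higher than sham, the myeloid factors Irf5 and Irf8 (log2 changes 1.22 and 1.27), with 1 called when ICH+P7C3-A20 2, ICH+P7C3-A20 3, sham 1 or sham 2 was left out.

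Of 25 interferon-stimulated genes, 22 rose in ICH against sham (median log2 change 1.60) and 24 fell in ICH+P7C3-A20 against ICH (median -1.93). The 6 Schlafen genes had medians of 3.03 and -1.98 in these comparisons. Isg15, a ubiquitin-like modifier, averaged 4.28 FPKM in ICH+P7C3-A20, 18.4 in ICH and 5.92 in sham. Ifitm3, which blocks virus entry, averaged 30.8, 94.7 and 21.8 FPKM in the same groups, Bst2 8.86, 32.7 and 6.46, Ifit3 8.61, 29.2 and 11.3, and Ifit1 1.53, 6.63 and 3.41. Of the 25, ICH+P7C3-A20 against sham had 1 higher, Oas3 (log2 change 3.55), and 1 lower, Ifi44 (-1.45), both at levels under 1 FPKM in these groups. Of these 2 genes' list, 0 were called without ICH+P7C3-A20 2, ICH+P7C3-A20 3, sham 1 or sham 2, and 1 without ICH+P7C3-A20 1. The median was -0.19 there, against 1.16 for the 6 Schlafen genes, a gap that was not tested.

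Among 6 brakes on interferon signalling, 3 rose in ICH against sham and 3 fell in ICH+P7C3-A20 against ICH: Socs3, Usp18 and the phosphatase gene Ptpn6 in each case. Ptpn6 had log2 changes of 2.98 and -1.26, and Ptpn2 and Pias1 passed in neither. ICH+P7C3-A20 against sham had 2 of the 6 higher, Socs3 (3.11) and Ptpn6 (1.72).

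The tRNA nuclease and translation control list matters here because Slfn2 is described as shielding tRNA from angiogenin. Of 11 tested genes 4 rose in ICH against sham, among them Ang, the angiogenin gene (log2 change 2.54), Rnh1, its inhibitor (1.20), and Eif2ak2 (1.83). The other 7 were not called, the list's median log2 change was 0.18, and 15.6% of all tested genes were called higher. Against ICH, 3 fell in ICH+P7C3-A20, Ang (-1.17), Rnh1 (-0.84) and Eif2ak2 (-1.3). The other 8 were not called, and 6.05% of all tested genes were called lower. Ang was also higher in ICH+P7C3-A20 against sham (log2 change 1.37, edgeR adjusted p = 0.0245) and was not called without ICH+P7C3-A20 3 or sham 1. It was the 1 gene of 11 called there, where 4.58% of all tested genes were called higher. Eif2ak1 and the tRNA 3′ processing nuclease gene Elac2 passed in no comparison.

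**Figure D5:**
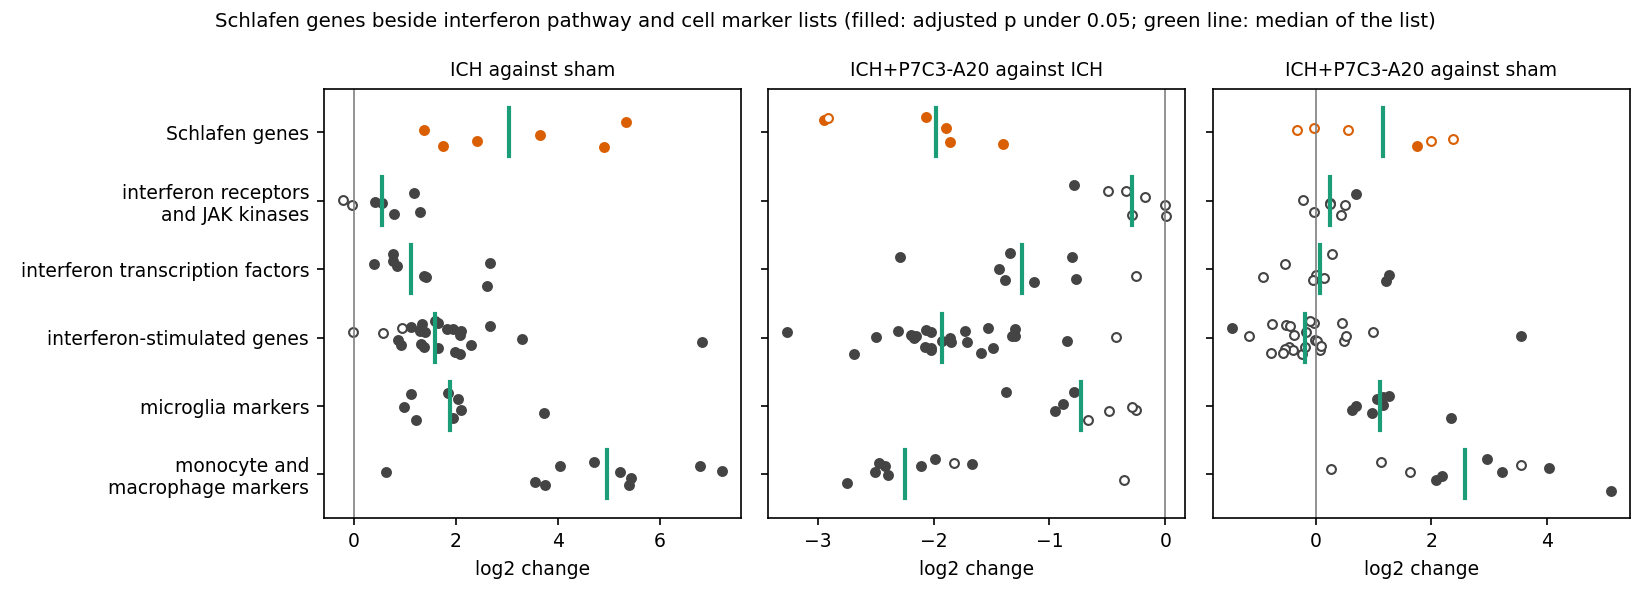
Log2 change by edgeR of the 6 Schlafen genes (orange), 3 interferon pathway lists and 2 cell marker lists, in 3 comparisons (panels). Each point is a gene, filled where the adjusted p is under 0.05, and green lines are medians. The Schlafen genes lie at 1.38 to 5.33 in ICH against sham and at -2.95 to -1.40 in ICH+P7C3-A20 against ICH, and the monocyte and macrophage markers have medians of 4.96 and -2.25.

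Markers of cells that can express Schlafen genes moved with the same groups. Over all tested genes 15.6% were called higher in ICH against sham and 6.05% lower in ICH+P7C3-A20 against ICH. In ICH+P7C3-A20 against sham 4.58% were called higher. The summed level of 10 monocyte and macrophage markers was 96.3 to 178 CPM in ICH+P7C3-A20, 401 to 545 CPM in ICH and 41.8 to 50.3 CPM in sham, led by Lyz2 in ICH and by Vcan in sham. Of these 10 markers, 10 rose in ICH against sham, 8 fell in ICH+P7C3-A20 against ICH (5, 4 and 5 without ICH 1, ICH 2 and ICH 3) and 6 were higher in ICH+P7C3-A20 against sham. The defining monocyte gene Ccr2 was present in every library. The summed level of 8 microglia markers was 477 to 762 CPM in ICH+P7C3-A20, 1127 to 1147 CPM in ICH and 255 to 300 CPM in sham. All 8 rose in ICH against sham and 4 fell with treatment (2, 1 and 2 without ICH 1, ICH 2 and ICH 3). All 8 were higher in ICH+P7C3-A20 against sham (4, 4 and 5 without ICH+P7C3-A20 3, sham 1 and sham 2). The part of these cells in the changes of the Schlafen genes was not tested.

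Genes of the T cell receptor complex and of B and NK cells each summed to at most 3.71 CPM in any library. The T cell receptor complex genes Cd3d, Cd3e, Cd3g and Trac summed to 0.366 to 0.916 CPM in ICH+P7C3-A20, 0.930 to 3.71 CPM in ICH and 0 to 0.776 CPM in sham, and Cd3d was at 0 in all sham and ICH+P7C3-A20 libraries. The full T cell list was dominated by Thy1, which neurons express. Without Thy1 it summed to 29.8 to 50.0 CPM in ICH+P7C3-A20, 41.5 to 50.1 CPM in ICH and 54.9 to 79.7 CPM in sham, highest in sham and mostly from Cd4 (51.8 to 75.1 CPM in sham). The 8 B and NK cell markers summed to 0.744 to 1.46 CPM in ICH+P7C3-A20, 1.51 to 3.35 CPM in ICH and 0.415 to 0.791 CPM in sham. The 10 neutrophil markers summed to 22.7 to 42.2 CPM in ICH+P7C3-A20, 41.5 to 73.0 CPM in ICH and 8.57 to 10.6 CPM in sham, mostly from Csf3r, with the defining gene Ly6g at 0 in every library but ICH+P7C3-A20 1. Of the 8 that could be tested, 5 rose in ICH against sham (3 without ICH 2). The 8 endothelial markers summed to 251 to 311 CPM in ICH+P7C3-A20, 369 to 407 CPM in ICH and 174 to 213 CPM in sham, and 8 of 8 rose in ICH against sham. Neuronal markers, which check the labelled tissue, were present in every library, at 3681 to 6132 CPM in ICH+P7C3-A20, 2712 to 3072 CPM in ICH and 4334 to 4869 CPM in sham. In ICH against sham 7 of 8 neuronal markers fell (4 without ICH 2 or sham 1, 3 without ICH 1 or ICH 3), where 10.4% of all tested genes fell. In ICH+P7C3-A20 against ICH 2 of 8 rose (0 without ICH+P7C3-A20 1 or any 1 ICH library, 1 without ICH+P7C3-A20 3, 4 without ICH+P7C3-A20 2). Over all 21900 tested genes 590 were called higher in that comparison.

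Among glial markers, those of astrocytes also moved with the groups. The 8 astrocyte markers summed to 5098 to 6029 CPM in ICH+P7C3-A20, 5895 to 7104 CPM in ICH and 3306 to 3398 CPM in sham, and 6 of 8 rose in ICH against sham. In ICH+P7C3-A20 against ICH the astrocyte genes Gfap, Aqp4 and Aldh1l1 fell and the glutamate transporter gene Slc1a2 rose, 4 calls that became 2 without ICH+P7C3-A20 3 or any 1 ICH library. The 8 oligodendrocyte markers summed to 5520 to 11640 CPM in ICH+P7C3-A20, 12524 to 15254 CPM in ICH and 8984 to 11075 CPM in sham. Of these the tight junction gene Cldn11 alone was called, higher in ICH against sham and lower in ICH+P7C3-A20 against ICH. A count of 1 of 8 is near the shares of all tested genes called, 15.6% higher and 6.05% lower, so nothing is read from it. The first count of 1 became 0 without ICH 1, ICH 3, sham 1 or sham 3, and the second became 0 without ICH+P7C3-A20 1 or any 1 ICH library and 2 without ICH+P7C3-A20 2. The part of these cell types in the Schlafen changes was not tested.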

How the data were processed

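Polyadenylated RNA of 9 mouse brains was made into libraries with dUTP-marked second strands, per the labels' protocols. The submitters' processing notes name cutadapt 1.9, HISAT2 2.0.4 and StringTie 1.3.4d. No source used here states the genome build, the strand setting or how counts were made. Per the file headers the authors deposited FPKM values and, beside them, estimated counts as whole numbers. In each library these counts lay within 1 count of FPKM times length times a constant for 95.7% to 96.6% of low single-transcript genes, so they are estimates and not raw reads.

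The main test was the robust quasi-likelihood test of edgeR 4.0.16 in R 4.3.3, with TMM scaling and 1 mean per group over all 9 libraries (6 residual degrees of freedom). Low genes were removed with filterByExpr, at a minimum count of 10 and a total of 15. Tests were two-sided, with Benjamini-Hochberg adjustment over all 21900 tested genes and calls at an adjusted p under 0.05. An SE is the log2 change over the root of edgeR's F. The fit was tested on simulated counts that gave all genes the same relative spread between mice. That does not cover genes as widely spread as Slfn1 and Slfn4 among ICH mice. The labels name separate mice. Members, gene lists, motifs and tests were chosen with earlier results of these data known. Named were the 6 members, other Schlafen genes, neighbours, the 3 genes with the highest mean FPKM of each interferon or tRNA list plus fixed signalling genes, and the 3 genes most correlated with each member. Other genes named were singled out after their values were seen. A few genes under this rule are not named here, though list counts include them.

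Alternatives were other scaling, no filter, DESeq2 1.42.0, limma 3.58.1 on log2(FPKM + 1) or log2(FPKM + 0.1), quantile normalization, a minimum FPKM of 1 in 3 libraries, only the compared groups, a replicate block, a 2-fold minimum and each library left out. Promoter windows came from RefSeq (GRCm38.p6). Of the 35112 genes, 34996 have an ID in GENCODE M21 and 30806 the identical position and strand.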

Additional observations from a re-analysis of the deposited data

How the results depend on the processing

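In ICH against sham all 6 Schlafen genes were called under every alternative run except the minimum of 1 FPKM in 3 libraries, where Slfn1 and Slfn4 were not tested and the other 4 were called. In ICH+P7C3-A20 against ICH the 4 genes tested under that minimum were all called, and the count was 5 or 6 of 6 under the other tools and settings. With a library left out it was 2 to 6, with 2 without ICH 2 and without ICH 3. In ICH+P7C3-A20 against sham the count of 1 became 0 with no low-count filter, under each of the 4 limma settings and with only the compared groups, and 2 under DESeq2 and under the replicate block. With a library left out it ran from 0 to 2. The log2 change of Slfn5 in that comparison (-0.02) ran from -0.16 to 0.12 with a library left out, at 0.11 without ICH+P7C3-A20 1 and 0.12 without sham 3, never past the threshold. Of 264 recomputed log2 changes of the 6 genes, 236 kept direction and side of the threshold, 18 lost a call, 8 gained one and 2 turned. The cause of these moves was not tested.

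Over all tested genes, same-numbered libraries deviated from their group means with correlations of 0.11, 0.08 and 0.25 (ICH and sham), 0.09, -0.26 and -0.26 (ICH+P7C3-A20 and ICH) and 0.14, -0.06 and -0.04 (ICH+P7C3-A20 and sham). Differently numbered libraries were not compared, so whether the numbers pair the mice was not settled. Replicate 1 was the lowest mouse for all 6 genes in ICH and in ICH+P7C3-A20, but not in sham. With the number as a block 6, 5 and 2 of the 6 genes were called in the 3 comparisons, Slfn4 being the gain in ICH+P7C3-A20 against sham (edgeR adjusted p = 0.0362), and 5326, 1697 and 944 genes over the whole table. Without the block these were 5701, 1914 and 1165. With a library left out they ran from 4075 to 5561, from 571 to 1954 (813 without ICH+P7C3-A20 1, 683, 571 and 671 without ICH 1, 2 and 3) and from 538 to 1434 (774 and 538 without ICH+P7C3-A20 2 and 3, 653 without sham 1). For ICH+P7C3-A20 against ICH, DESeq2 called 3532 genes, limma on log2(FPKM + 0.1) 1262 and a 2-fold minimum left 817. For ICH+P7C3-A20 against sham they were 2109, 514 and 718, with 435 for the compared groups alone and 312, 498 and 407 under the other limma settings. For ICH against sham the minimum FPKM left 3792 and the 2-fold minimum 2384. Higher calls in ICH against sham were 60.0% of all calls, 72.3% under limma on log2(FPKM + 1) and 47.0% under quantile normalization. In ICH+P7C3-A20 against ICH they were 30.8%, 14.2% and 34.3%, and in ICH+P7C3-A20 against sham 86.0%, 94.6% and 80.1%, with 73.9% under DESeq2. Of 510 recomputed counts for gene lists, 119 moved over 1.5 times.

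With 3 mice a group and 4 to 19 counts of Slfn1 in sham, its fold is the least certain. Differences in the region sampled, read counting among near-identical copies and cell numbers were not measured.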
